A study of Mus musculus with 8 samples.

Results

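Cells carrying the leukaemia fusion gene MLL-AF9 were compared with non-transduced (NT) cells after both had been treated with OHT, labelled as removing Ring1b. The comparison rests on 2 of the 8 libraries, 1 a side, so it has no replicate check and no test of its own. Of 19353 RefSeq transcripts, 10888 had 20 or more normalised reads in the higher of the 2 libraries and were compared as MLL-AF9 minus NT on the scale log2(value + 1). The same subtraction between the 2 libraries treated with ethanol, called control here, showed which MLL-AF9 differences were already there with Ring1b present.

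Ring1b (gene Rnf2) and Ring1a (Ring1) are the catalytic subunits of Polycomb repressive complex 1 (PRC1), which places ubiquitin on histone H2A and keeps developmental genes silent. MLL-AF9 joins the DNA-binding end of the methyltransferase MLL (Kmt2a) to AF9 (Mllt3), which recruits elongation factors and DOT1L, and it is known for holding HOXA genes and Meis1 active in myeloid leukaemia. In blood progenitors PRC1 restrains both lineage genes and cell-cycle inhibitors, among them those of the Cdkn2a locus.

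All cells were lineage-negative bone marrow cells of C57BL/6 mice, enriched with a progenitor kit, and all are labelled Ring1a-/- Cdkn2a-/-, controls included. Cells were left without a transduced gene or were transduced with HOXA9, PML-RARa or MLL-AF9, then kept 72 h in ethanol (Ring1b WT) or OHT (Ring1b KO), with 1 library for each of the 8 combinations. The labels used here give neither the animals per library, their age nor the vector. Below, paired levels in NT or MLL-AF9 give the control library first and the OHT library second. Where a library is called lowest, highest or alone in its level, the NT and MLL-AF9 libraries are meant unless others are named. The action of OHT and the loss of Ring1b cannot be told apart, nor can transduction itself and the fusion gene, because NT cells are labelled as having no transduced gene. The columns of these cells are headed Empty, however, and if they carried an empty vector, every NT value here is one of empty-vector cells.

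The libraries held 4226751 (MLL-AF9 OHT) to 6998223 (NT control) recovered reads. A value of 100 reads has a 95% counting interval of 81.4 to 121.6, and 1 of 30 reads has one of 20.2 to 42.8. These intervals cover counting error only. From 15.1% to 19.99% of transcripts stood at the lowest entry of their library, which may mean 0 or 1 read. Reads of very abundant transcripts levelled off: 1266 transcripts exceeded 0.5 reads per base in a library of the OHT pair, their differences can be compressed, and one at the ceiling in both would appear 1.31-fold higher in MLL-AF9 OHT. Values are not divided by length, so genes are compared across libraries and not with each other. The labels' check by the targeted genes was limited. Rnf2 read 666 and 802 in NT, 769.8 and 767 in MLL-AF9. Ring1, labelled as deleted throughout, read 109 and 43.6 in NT, 166 and 77.8 in MLL-AF9, and the 2 Cdkn2a transcripts, also labelled as deleted, lay between 18 and 42.4 in these 4 libraries. Which stretch of each gene was deleted is not stated in the labels, so levels of whole transcripts check nothing. Kmt2a read 946 in NT OHT and 1157 in MLL-AF9 OHT and Mllt3 98.7 in NT OHT and 35.5 in MLL-AF9 OHT; whether reads of the fusion are counted there is not known.

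After OHT, 983 transcripts (9.03% of those compared) were at least 2-fold higher in MLL-AF9 and 1452 (13.3%) at least 2-fold lower, while the median difference was -0.09 on the log2 scale. The largest differences were downward: 358 transcripts were 8-fold or more lower and 135 were 8-fold or more higher. For 389 of the higher and 638 of the lower transcripts the other library was under 20, and such a transcript could enter the comparison only through the library where it was high. Counting error alone leaves 597 higher and 858 lower, those whose 95% counting interval lies past 2-fold. In the control pair 923 of 10746 transcripts (8.59%) were higher and 1154 (10.7%) lower.

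The share of differences that stayed was larger for those towards lower levels. Of the 1154 transcripts lower in MLL-AF9 control than in NT control, 636 (55.1%, exact 95% binomial interval 52.2 to 58.0) were lower by 2-fold or more after OHT too, where 11.0% of all transcripts measured in the control pair were. Of the 923 higher ones, 306 (33.2%, interval 30.1 to 36.3) were higher again, against 6.88% of those measured in the control pair. Both intervals treat transcripts as independent, although they come from the same libraries. They do not cover how the shares would vary between cultures. Read from the other side, these 306 make up 31.1% of the 983 higher after OHT, and the 636 make up 43.8% of the 1452 lower. Large differences stayed most: 78.6% of those 8-fold or more lower and 60.8% of those 8-fold or more higher, against 39.8% and 22.5% between 2- and 4-fold. The 2 pairs share no library. Near equal after OHT (within 0.32 of 0 on the log2 scale) were 121 of the control-lower and 153 of the control-higher transcripts, and on the opposite side by 2-fold or more were 69 and 27. Another 65 and 200 were under 20 in both OHT libraries. Across the 10101 transcripts measured in both pairs, Pearson's r was 0.66 and Spearman's rho 0.42; these points are transcripts, not replicates, and share their libraries.

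**Figure D1:**
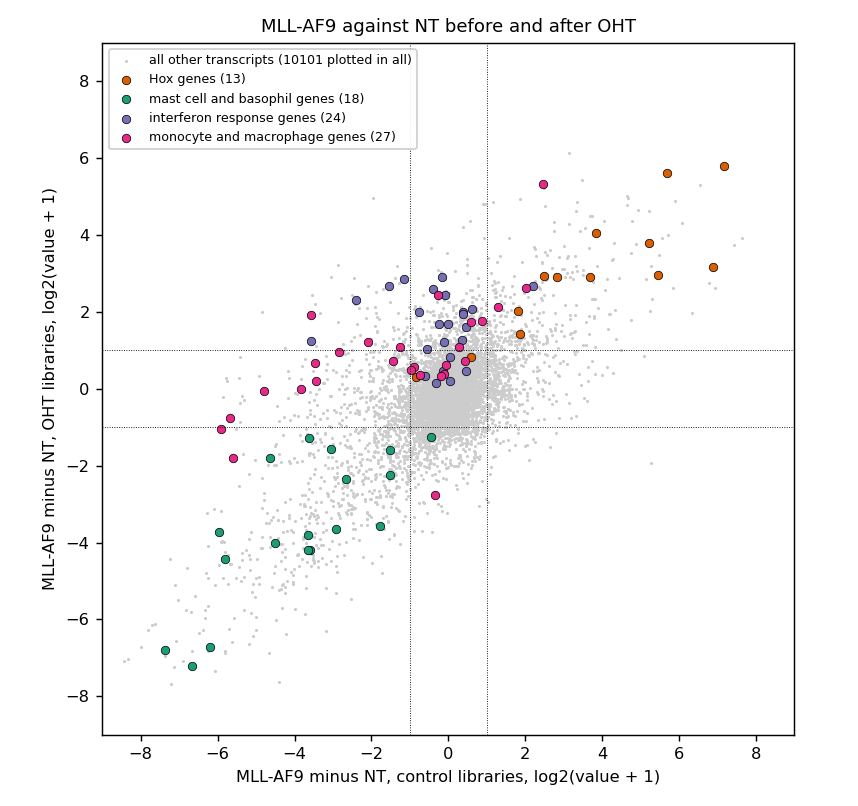
Each point is a transcript with 20 or more normalised reads in the higher library of both pairs (10101), with its MLL-AF9 minus NT difference in the control libraries across and in the OHT libraries upward, both as log2(value + 1); dotted lines mark 2-fold. Hox genes sit at the upper right and mast cell genes at the lower left, interferon response genes lie above the centre, and monocyte genes spread from the left up to the middle.

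Homeobox genes of the HOXA cluster, the best-known targets of MLL fusions, were higher in MLL-AF9 with Ring1b and without it. All 10 HOXA members that reached 20 reads were more than 2-fold higher in both pairs, with a median difference of 3.75 in the control pair and 2.95 after OHT on the log2 scale. Hoxa11 read 4.14 and 10.4 in NT, 743 and 636 in MLL-AF9. The NT libraries were both low and the MLL-AF9 libraries both high, 61.2-fold (95% counting interval 33 to 128) apart after OHT. Its antisense neighbour Hoxa11os behaved alike (11.4 in NT OHT and 247 in MLL-AF9 OHT), and since the kit does not mark strand the reads of the 2 genes cannot be told apart where they overlap. Hoxa10 read 1.65 and 11.4 in NT, 313 and 111 in MLL-AF9. Its level in MLL-AF9 was thus lower with OHT than without, and its level in NT higher, and the libraries of the 2 contexts still did not overlap. Hoxa5 read 38.9 and 20.8 in NT, 566 and 362 in MLL-AF9. Hoxa9, the HOX gene most tied to these leukaemias, read 20.7 and 6.23 in NT, 122 and 54.6 in MLL-AF9. Reads of Hoxa9 were 249.9 and 252 in the 2 HOXA9 libraries, where the gene was introduced. Higher HOXA levels were not those of MLL-AF9 alone. Of the 10 measured HOXA genes, 8 were at least 2-fold above NT OHT in HOXA9 OHT and 3 in PML-RARa OHT, and none was 2-fold lower. The median differences from NT OHT were 1.75 and -0.29 on the log2 scale. Hoxa11 read 245.7 in HOXA9 control, 181 in HOXA9 OHT, 432.5 in PML-RARa control and 82.1 in PML-RARa OHT.

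HOX genes of the other clusters were mostly under 2-fold apart between the contexts after OHT. Of 11 measured members of clusters B, C and D, 2 were at least 2-fold higher and 1 lower in MLL-AF9 after OHT, and 7 of the 11 were at least 2-fold higher with OHT than with ethanol in NT cells and 7 in MLL-AF9 cells, as were 14.7% and 16.1% of all transcripts. Only 3 of the 11 were measured in the control pair. The others entered only through an OHT library, which favours a count of genes higher with OHT. Hoxd13 read 2.48 and 54 in NT, 5.29 and 69.6 in MLL-AF9. Hoxc9 read 2.48 and 33.2 in NT, 1.06 and 32.7 in MLL-AF9. These 2 genes were low in both control libraries and higher in both OHT libraries, with or without MLL-AF9. Cluster B was mixed: 3 of its 7 measured genes were at least 2-fold higher with OHT in each context. Hoxb13 read 2.48 and 3.12 in NT, 180.01 and 201 in MLL-AF9, with MLL-AF9 high and NT low under both treatments. Hoxb8, the other of the 2 that were higher after OHT, read 1.65 and 4.16 in NT, 1.06 and 24.6 in MLL-AF9, high in MLL-AF9 OHT alone. Over all 37 HOX genes in the tables, 21 were measured, 12 of them higher and 1 lower (9.01% and 13.3% of all symbols were), with a median of 2.02 against -0.09 over all symbols; 12 of the 21 had their lower library under 20, and the median of all 37 was 0.95.

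**Figure D2:**
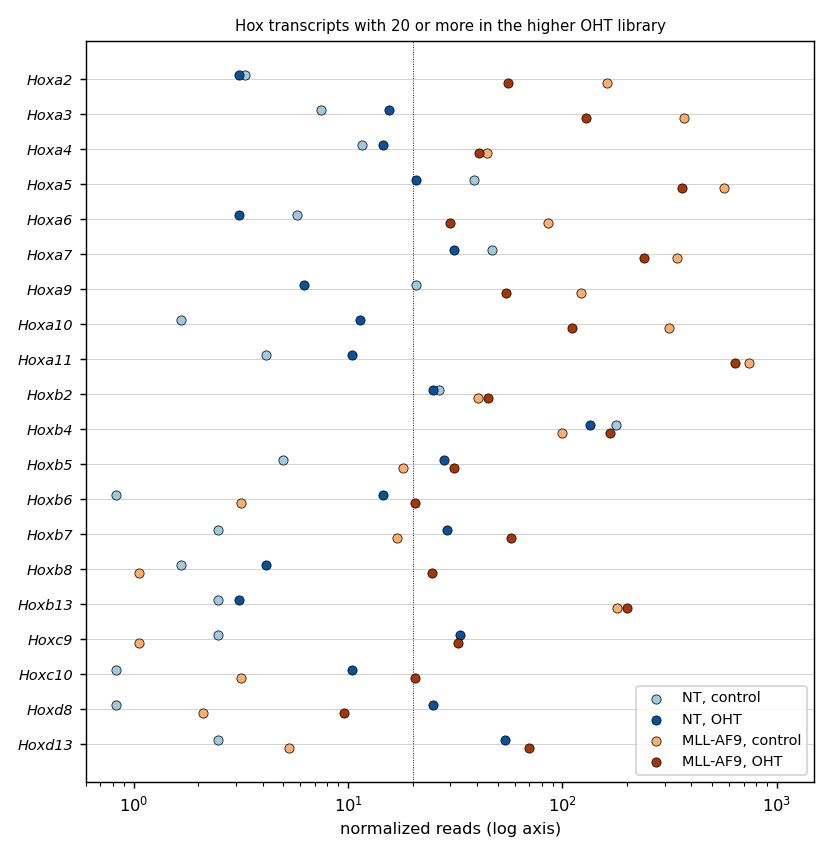
Normalised reads on a log axis of 20 HOX genes with 20 or more in the higher OHT library, 1 point a library, the dotted line at 20. For the HOXA genes drawn and Hoxb13 both MLL-AF9 points lie to the right of both NT points, while for most genes of clusters B, C and D both OHT points lie to the right of both control points.

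Other genes tied to MLL fusions divided into those that stayed and those that did not. Of 23 measured genes of this list, which includes the HOXA genes, 9 were higher and 3 lower after OHT (9.01% and 13.3% of all symbols were, so the 3 lower are near that share), with a median of 0.64 (0.61 over the 26 in the tables) against 1.44 in the control pair. Six4, a homeobox factor that acts with EYA proteins, read 47.2 and 19.7 in NT, 275 and 244 in MLL-AF9. It was high in both MLL-AF9 libraries and low in both NT libraries. Meis1, the partner of HOXA9, read 22.3 and 69.6 in NT, 51.9 and 49.1 in MLL-AF9. Its level was higher in MLL-AF9 than in NT with ethanol and lower with OHT, by 1.18 and -0.49 on the log2 scale, the NT library standing higher with OHT. Pbx3, another HOX partner, read 173 and 241 in NT, 470.1 and 252 in MLL-AF9, and the 2 OHT libraries were near equal. The kinase gene Cdk6 read 249 in NT OHT and 291 in MLL-AF9 OHT. Zfp521 (64.5 and 182 in NT, 1.06 and 1.36 in MLL-AF9) and the survival gene Bcl2 (592 and 1339 in NT, 341 and 240.1 in MLL-AF9) were among the 3 that were lower, with Mecom.

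Outside the HOX genes, the transcripts with the largest difference kept in both pairs covered enzymes, adhesion molecules and RNAs of several kinds. Hpgd, which breaks down prostaglandins, read 24.8 and 43.6 in NT, 2407 and 1764 in MLL-AF9, 40.4-fold (95% counting interval 29.7 to 56.4) higher after OHT; it reached 1.35 reads per base in MLL-AF9 control, in the range where values level off. Car4, a membrane carbonic anhydrase, read 38.9 and 41.6 in NT, 995 and 1168 in MLL-AF9. Both genes were high in every MLL-AF9 library and low in every NT library, with HOXA9 OHT at 571 and 977. Bai1, now Adgrb1, an adhesion receptor that takes part in the uptake of apoptotic cells, read 6.62 and 13.5 in NT, 455 and 427 in MLL-AF9. Amotl1, of the angiomotin family of junction proteins, read 19 and 8.31 in NT, 498 and 302 in MLL-AF9. Tln2, a talin that links integrins to actin, read 22.3 and 11.4 in NT, 382 and 255 in MLL-AF9. The noncoding host transcript Snhg11 read 50.5 and 46.8 in NT, 1931 and 1175 in MLL-AF9, and the carboxylesterase Ces1d 15.7 and 3.12 in NT, 511 and 102 in MLL-AF9. In Ces1d the MLL-AF9 level was lower with OHT, and so was that of NT, so that the difference stayed at 4.65 on the log2 scale after 4.94.

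Genes of mast cells and basophils made up the clearest block that was lower in MLL-AF9 under both treatments. All 18 measured members of this list, of 19 in the tables, were at least 2-fold lower after OHT, and 17 of them in the control pair as well (13.3% and 10.7% of all symbols were); the medians were -3.69 and -3.64, against -0.09 and -0.01 over all transcripts. In 7 of the 18 the MLL-AF9 library was under 20. Among the lowest were 2 mast cell proteases: Mcpt4 read 1078 and 1367 in NT, 9.53 and 8.19 in MLL-AF9. Mcpt2 read 1031 and 1329 in NT, 5.29 and 10.9 in MLL-AF9. Both NT libraries were high and both MLL-AF9 libraries near the bottom, 167-fold (95% counting interval 76.5 to 456) and 122-fold (95% counting interval 61.6 to 283) lower after OHT. Il1rl1, the receptor for IL-33, read 4273 and 6126 in NT, 75.2 and 282 in MLL-AF9. Fcer1a, the IgE-binding chain of the high-affinity IgE receptor, read 1388 and 1906 in NT, 21.2 and 142 in MLL-AF9. Ms4a2, its beta chain, read 156 and 240.01 in NT, 11.6 and 12.3 in MLL-AF9. Gata2, the transcription factor these cells depend on, read 3379 and 4513 in NT, 536 and 881 in MLL-AF9. Smaller differences were seen for Cpa3 (2952 in NT OHT and 988 in MLL-AF9 OHT), the mast cell carboxypeptidase, Hdc (3293 in NT OHT and 1091 in MLL-AF9 OHT), which makes histamine, and Prss34 (1768 in NT OHT and 729 in MLL-AF9 OHT), a basophil protease. Kit was measured poorly, at 24 and 27 in NT, 6.35 and 1.36 in MLL-AF9. The 1 member not measured, Mitf, was under 20 throughout the pair.

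The summed level of the 19 mast cell and basophil genes was 25865 in NT control, 36266 in NT OHT, 25493 and 37613 in the PML-RARa libraries, 4028 in MLL-AF9 control and 6744 in MLL-AF9 OHT. The HOXA9 libraries stood low as well, at 7498 and 7324. Of the 18 measured genes, 14 exceeded 0.5 reads per base in a library used, and the 4 that did not were all lower, with a median of -3.91. In bulk RNA, fewer cells of a type and less of its RNA per cell cannot be told apart.

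**Figure D3:**
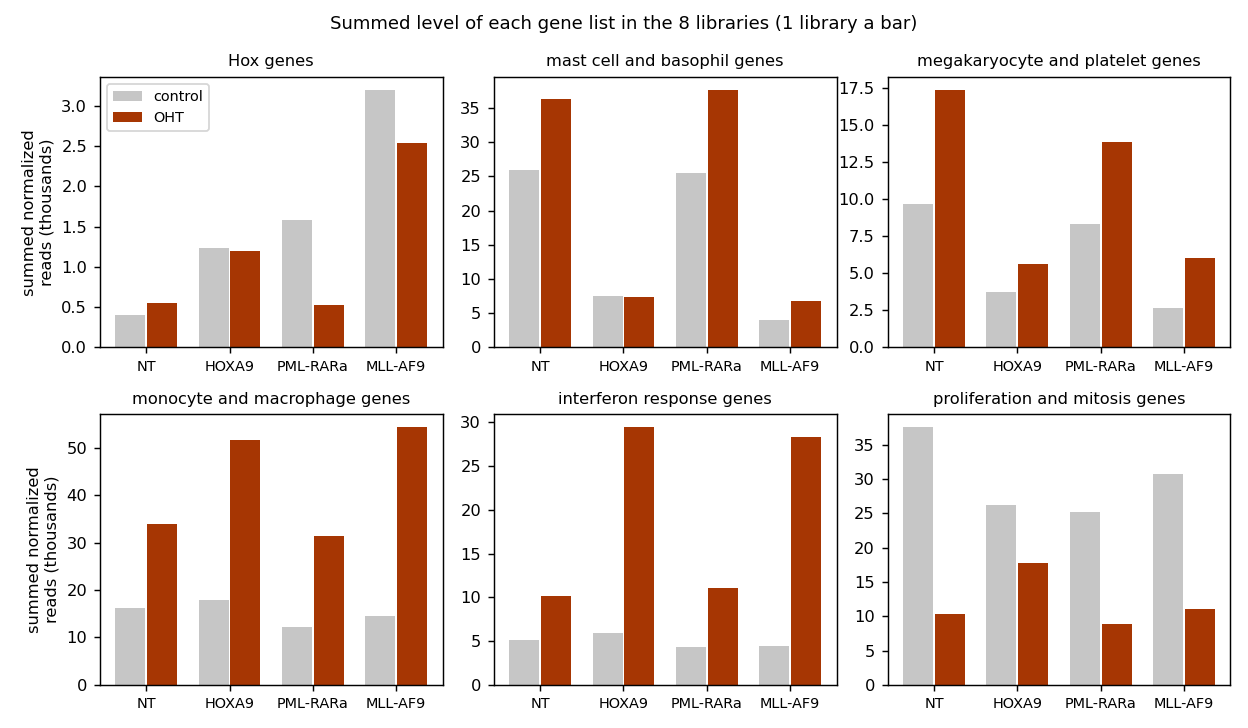
Summed normalised reads (axis in units of 1000) of 6 gene lists in each of the 8 libraries, 1 library a bar, grey for control and red for OHT. Mast cell and megakaryocyte sums are high in NT and PML-RARa and low in HOXA9 and MLL-AF9, whereas interferon and monocyte sums are highest in the OHT libraries of HOXA9 and MLL-AF9.

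Genes of megakaryocytes and platelets were lower in the same direction. Of 15 measured members, 12 were lower and none higher after OHT (13.3% and 9.01% of all symbols were), with a median of -2.57 against -3.46 in the control pair; the median of all 16 in the tables was -2.39. Itga2b, the integrin CD41, read 3064 and 5059 in NT, 301 and 851 in MLL-AF9. Gp5, of the von Willebrand factor receptor, read 299 and 1165 in NT, 8.47 and 53.2 in MLL-AF9. Ppbp and Pf4, the platelet chemokines, did not stay apart: Ppbp read 678 and 1223 in NT, 11.6 and 1398 in MLL-AF9. Pf4 read 443 and 833 in NT, 34.9 and 662 in MLL-AF9. In both, MLL-AF9 control alone was low among the NT and MLL-AF9 libraries. Ppbp also read 118 in HOXA9 control and 26.8 in PML-RARa control. The summed level of this list was 17334 in NT OHT and 6015 in MLL-AF9 OHT. Gata1, which drives erythroid, megakaryocyte and mast cell genes, read 680.1 and 1169 in NT, 58.2 and 57.3 in MLL-AF9. Gzmb, a granzyme, read 1846 and 2347 in NT, 229.8 and 371 in MLL-AF9.

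Stem and progenitor genes were lower in part. Of 21 measured members, 10 were lower and none higher (13.3% and 9.01% of all symbols were), with a median of -0.89 (-0.79 over all 24 in the tables) against -0.48 in the control pair. The lower ones included Tal1 (1719 and 2622 in NT, 308 and 378 in MLL-AF9), Tek (39.7 and 126 in NT, 1.06 and 2.73 in MLL-AF9), the angiopoietin receptor, and Slamf1 (50.5 and 103 in NT, 2.12 and 6.82 in MLL-AF9), along with Gata2. Mycn read 261 and 572 in NT, 76.2 and 27.3 in MLL-AF9. Hlf, a factor of stem cells, read 225 and 255 in NT, 159.9 and 60.03 in MLL-AF9. Myeloid regulators stood apart from these: Spi1 read 1290.5 in NT OHT and 1933 in MLL-AF9 OHT and Cebpa 756 in NT OHT and 1115 in MLL-AF9 OHT, under 2-fold apart.

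Among single transcripts, those with the largest lower difference in both pairs included secreted and neural genes. Bmp7, a bone morphogenetic protein, read 613 and 1317 in NT, 3.18 and 5.46 in MLL-AF9. Grm6, a glutamate receptor, read 1085 and 3248 in NT, 2.12 and 23.2 in MLL-AF9. Maob, a monoamine oxidase, read 1697 and 1546 in NT, 4.24 and 10.9 in MLL-AF9. All 3 were high in both NT libraries and low in both MLL-AF9 libraries. Rprm, a cell-cycle arrest gene, read 1206 and 1635 in NT, 6.35 and 12.3 in MLL-AF9. Cadm3, an adhesion molecule, read 520.4 and 1242 in NT, 1.06 and 10.9 in MLL-AF9. Otop1, a proton channel, read 209 and 725 in NT, 1.06 and 5.46 in MLL-AF9, Mab21l1 437 and 563 in NT, 2.12 and 2.73 in MLL-AF9 and Frmpd1 243 and 317 in NT, 1.06 and 1.36 in MLL-AF9. HOXA9 OHT was low for all of these too, between 3.62 (Otop1) and 38.9 (Grm6), and PML-RARa OHT was high, between 394 (Mab21l1) and 1595 (Grm6).

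Several inflammatory genes that were low in MLL-AF9 with ethanol reached the NT level with OHT. Of the 121 control-lower transcripts that ended near equal, the median response to OHT was 2.29 in MLL-AF9 and 0.61 in NT on the log2 scale. Which of these medians is higher was fixed by how the class was defined. Atp6v0d2, a subunit of the vacuolar proton pump found in osteoclasts and macrophages, read 181 and 1223 in NT, 2.12 and 1052 in MLL-AF9. Ccl2, the monocyte-attracting chemokine, read 637 and 1163 in NT, 10.6 and 1413 in MLL-AF9. Fpr1, a receptor for bacterial formyl peptides, read 249 and 398 in NT, 5.29 and 326 in MLL-AF9. In each, MLL-AF9 control was the lowest of the NT and MLL-AF9 libraries by far. For Atp6v0d2 NT control also lay well below both OHT libraries. HOXA9 control and PML-RARa control were low too for Atp6v0d2 (12.5 and 11.5) and Fpr1 (7.47 and 0.957), while Ccl2 read 66.4 and 553 there. The macrophage factor Maf read 172 and 635 in NT, 5.29 and 609.8 in MLL-AF9. C3ar1, the C3a receptor, read 895 and 2145 in NT, 48.7 and 1829 in MLL-AF9. Cx3cr1, the fractalkine receptor, differed in kind, at 222 and 46.8 in NT, 6.35 and 58.7 in MLL-AF9: its NT level was lower with OHT and its MLL-AF9 level higher. Ipcef1 read 279 and 93.5 in NT, 14.8 and 113 in MLL-AF9.

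**Figure D4:**
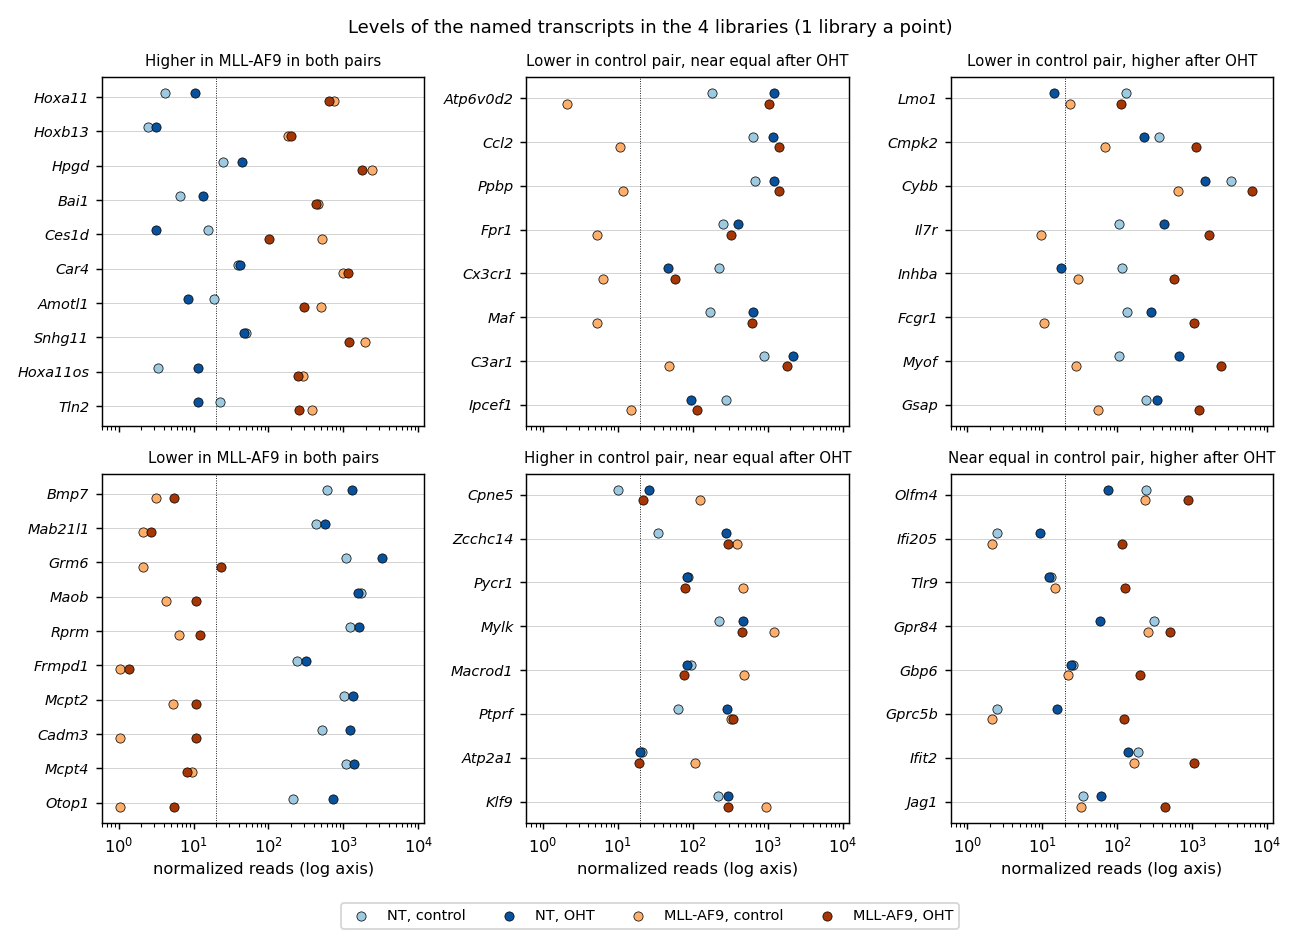
Normalised reads on a log axis of the transcripts named by 6 classes of difference, 1 point a library, NT in blue and MLL-AF9 in orange, dark for OHT; the dotted line is at 20. In the left panels the colours separate whatever the treatment; in the upper middle and upper right panels the MLL-AF9 control point alone lies far to the left for most genes.

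Some differences in the other direction were near 0 after OHT. The 153 control-higher transcripts that ended near equal had a median response to OHT of -0.99 in MLL-AF9 and 0.48 in NT. The definition of the class fixed which of these medians is lower. Pycr1, an enzyme of proline synthesis, read 85.2 and 83.1 in NT, 473 and 79.1 in MLL-AF9. Klf9, a Krüppel-like factor, read 218 and 297 in NT, 948 and 299 in MLL-AF9. In both genes MLL-AF9 control alone was high among the NT and MLL-AF9 libraries. HOXA9 control and PML-RARa control were high too, at 617 and 531 for Pycr1 and 676 and 562 for Klf9. Mylk, the myosin light chain kinase, read 223 and 461 in NT, 1213 and 458 in MLL-AF9. Zcchc14 read 34.7 and 278 in NT, 389.7 and 296 in MLL-AF9, where NT stood higher with OHT. Ptprf read 63.7 and 288 in NT, 319.8 and 347 in MLL-AF9 and Macrod1 96 and 84.2 in NT, 484 and 76.4 in MLL-AF9. Cpne5 (26 in NT OHT and 21.8 in MLL-AF9 OHT) and Atp2a1 (19.7 in NT OHT and 19.1 in MLL-AF9 OHT) were close to the minimum of 20 after OHT.

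Interferon response genes were higher in MLL-AF9 after OHT and, as a list, not in the control pair. Of 33 measured members, 26 were at least 2-fold higher and none lower (9.01% and 13.3% of all symbols were), and all 33 lay above 0; the median was 1.94, against -0.12 over the 24 measured in the control pair, where 1 was higher and 4 lower (8.5% and 10.7% of all symbols were). In 5 of the 33 the NT library was under 20, and the median of all 35 in the tables was 1.69. Ifit3, an antiviral tetratricopeptide protein, read 3.31 and 61.3 in NT, 1.06 and 543 in MLL-AF9, 8.86-fold (95% counting interval 6.72 to 11.9) higher after OHT. Rsad2 (viperin) read 45.5 and 313 in NT, 14.8 and 2004 in MLL-AF9. Isg15, a ubiquitin-like modifier, read 29 and 176 in NT, 38.1 and 708 in MLL-AF9. In all 3 the MLL-AF9 OHT library was the highest of the 4 and NT OHT came next. Oas2 and Oasl2, of the oligoadenylate synthetase family, read 237 in NT OHT and 1288 in MLL-AF9 OHT and 264 in NT OHT and 1592 in MLL-AF9 OHT. Ifit2 read 187 and 141 in NT, 166 and 1071 in MLL-AF9, and its NT level did not stand higher with OHT. Ifi205, of the interferon-inducible family that binds DNA, read 2.48 and 9.35 in NT, 2.12 and 117 in MLL-AF9.

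The promoters of 3 of these genes are shown because each holds a sequence found in most of the windows of the list, though not in all. They are taken from RefSeq (GRCm38.p6) and run from 250 bases before to 50 bases after the start of the gene, 5′ to 3′ on the gene's strand. Capitals mark each match, on either strand, to GAAA followed by any 2 bases and GAAA again (read on the other strand, TTTC, 2 bases and TTTC), the core of the element bound by interferon-stimulated gene factor 3; matches may overlap. Ifit3 lies at chr19:34583279-34583578, strand +, Rsad2 at chr12:26456403-26456702, strand - and Isg15 at chr4:156200769-156201068, strand -.
Ifit3: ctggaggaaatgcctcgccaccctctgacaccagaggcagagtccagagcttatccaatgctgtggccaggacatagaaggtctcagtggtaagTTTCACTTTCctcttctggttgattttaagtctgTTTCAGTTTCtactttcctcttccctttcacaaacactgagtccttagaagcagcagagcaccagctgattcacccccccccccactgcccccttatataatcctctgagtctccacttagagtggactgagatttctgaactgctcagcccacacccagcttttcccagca
Rsad2: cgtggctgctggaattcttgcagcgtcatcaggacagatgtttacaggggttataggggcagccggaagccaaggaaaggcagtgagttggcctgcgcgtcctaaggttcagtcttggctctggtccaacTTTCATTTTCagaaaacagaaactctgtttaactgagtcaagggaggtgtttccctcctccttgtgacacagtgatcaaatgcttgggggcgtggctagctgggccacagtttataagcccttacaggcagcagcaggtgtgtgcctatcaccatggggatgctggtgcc
Isg15: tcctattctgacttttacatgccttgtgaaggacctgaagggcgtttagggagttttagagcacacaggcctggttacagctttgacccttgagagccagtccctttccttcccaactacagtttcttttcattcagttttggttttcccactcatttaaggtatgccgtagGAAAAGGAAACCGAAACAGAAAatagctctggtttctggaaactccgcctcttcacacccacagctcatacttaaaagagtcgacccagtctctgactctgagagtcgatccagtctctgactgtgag
Ifit3 holds 2 matches, the first 156 bases before the start, Rsad2 1, 120 bases before it, and Isg15 3 that overlap, from 78 bases before it. Of the 33 measured interferon genes 25 had a window, and 17 of these (68%) held a match, against 1079 of 27025 genes with a window (3.99%). The share was 1 of 23 monocyte genes, 2 of 23 chemokines and cytokines, 0 of 12 HOX genes and 0 of 15 mast cell genes. Cxcl10, an interferon-induced chemokine that belongs to 2 of these lists, was among them. A match describes the letters and is not a measured binding site.

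The interferon genes stood higher in NT with OHT too, only less. Their median response to OHT was 1.29 in NT and 3.64 in MLL-AF9 on the log2 scale, and 22 and 30 of the 33 were at least 2-fold higher with OHT, against 14.7% and 16.1% of all transcripts. Summed over 35 genes, the level was 10141 in NT OHT and 28364 in MLL-AF9 OHT, from 5091 and 4471 with ethanol. It was 29427 in HOXA9 OHT and 11093 in PML-RARa OHT, so the high level was not that of MLL-AF9 alone. Cmpk2, a nucleotide kinase gene beside Rsad2, and Usp18, which removes ISG15, were lower in MLL-AF9 with ethanol and higher with OHT: Cmpk2 read 363 and 229.6 in NT, 67.8 and 1132 in MLL-AF9. Usp18 read 61.2 and 405 in NT, 4.24 and 955 in MLL-AF9. Members that differed little were Parp9 (728 in NT OHT and 812 in MLL-AF9 OHT), Ifi35 (615 in NT OHT and 704 in MLL-AF9 OHT) and Ddx58 (1015 in NT OHT and 1285 in MLL-AF9 OHT), the RNA sensor RIG-I. Stat2, a transcription factor of interferon signalling, read 746 in NT OHT and 1720.3 in MLL-AF9 OHT. The receptor gene Ifnar1 read 1106 in NT OHT and 2020.5 in MLL-AF9 OHT and Ifnar2 275 in NT OHT and 566 in MLL-AF9 OHT.

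**Figure D5:**
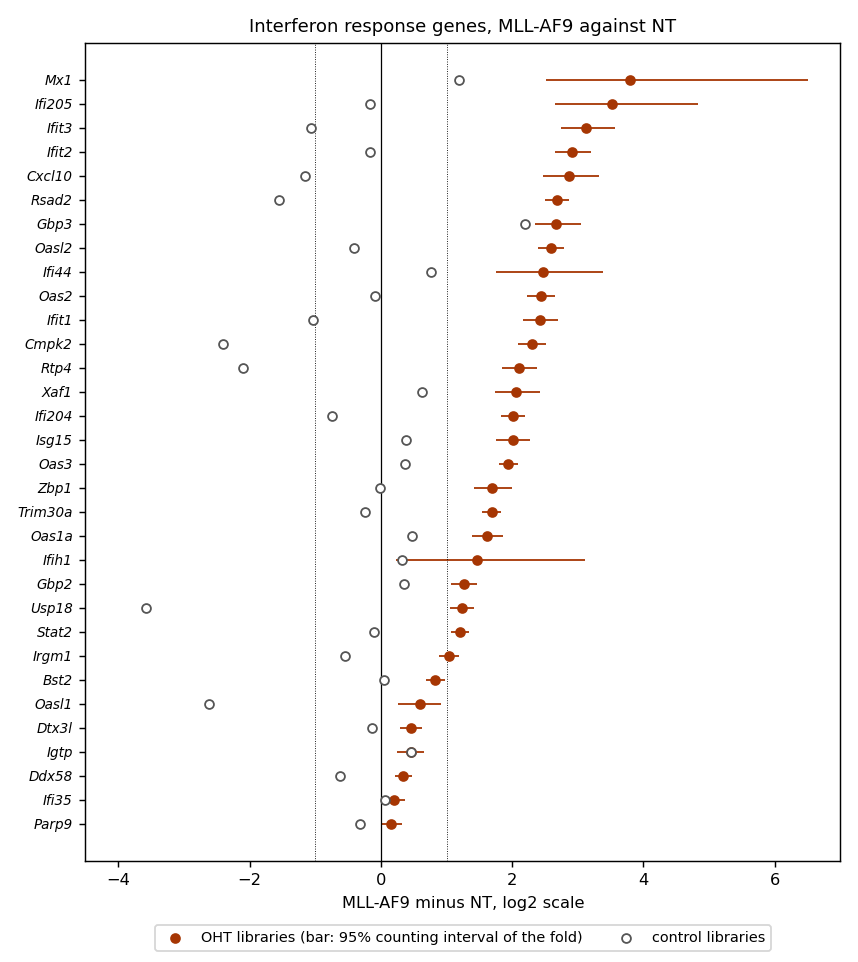
MLL-AF9 minus NT difference on the log2 scale of 32 interferon response genes, filled for the OHT libraries with the 95% counting interval of the fold, open for the control libraries; dotted lines mark 2-fold. All filled points lie right of 0 and 25 at or past 2-fold, while the open points scatter on both sides of 0.

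Monocyte and macrophage genes lay mostly below 0 in the control pair and above 0 after OHT. In the control pair 12 of 27 measured members were lower in MLL-AF9 and 3 higher (10.7% and 8.5% of all symbols were), with a median of -0.89. After OHT 14 of 33 were higher and 3 lower (9.01% and 13.3% of all symbols were), with a median of 0.73, and 0.72 over the 36 in the tables; the 3 lower are under the share over all symbols. Their summed level was 16311 in NT control, 14539 in MLL-AF9 control, 33849 in NT OHT and 54336 in MLL-AF9 OHT, with 51718 in HOXA9 OHT and 31337 in PML-RARa OHT. Fcgr1, a high-affinity IgG receptor, read 137 and 279 in NT, 10.6 and 1052 in MLL-AF9. Cybb, the catalytic subunit of the phagocyte oxidase, read 3257 and 1475 in NT, 648 and 6295 in MLL-AF9. Among the NT and MLL-AF9 libraries both were lowest in MLL-AF9 control and highest in MLL-AF9 OHT. Fcgr1 was higher still in HOXA9 OHT, at 1269, and Cybb lower still in PML-RARa control, at 59.3. Csf1r, the receptor for macrophage colony-stimulating factor, read 659 and 1778 in NT, 274 and 3804 in MLL-AF9, and the scavenger receptor Msr1 166 and 996 in NT, 38.1 and 2311 in MLL-AF9. Irf8, a factor of monocyte and dendritic cells, and Ccr2, the receptor of CCL2, were higher in MLL-AF9 in both pairs: Irf8 read 138 and 273 in NT, 560.1 and 1669.9 in MLL-AF9. Ccr2 read 1375 and 872 in NT, 3378 and 3825 in MLL-AF9. Vcam1, an adhesion molecule, read 134 and 27 in NT, 737 and 1117 in MLL-AF9, 41.4-fold (95% counting interval 28 to 63.7) higher after OHT. Siglec1, which is also interferon-inducible, read 3.31 and 46.8 in NT, 5.29 and 495 in MLL-AF9. The complement genes of tissue macrophages stood nearer to the NT level after OHT than before, but stayed below it: C1qa read 98.5 and 622 in NT, 1.06 and 177 in MLL-AF9. The differences of C1qb and C1qc were -0.77 and -1.05 on the log2 scale after OHT, the former under 2-fold, from -5.68 and -5.92 in the control pair. Apoe, an apolipoprotein of macrophages, read 422 and 1092 in NT, 329 and 161 in MLL-AF9, with MLL-AF9 OHT the lowest.

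Antigen presentation and chemokine genes differed between the pairs in the same sense. Of 15 measured dendritic cell and MHC class II genes, 6 were higher and none lower after OHT (median 0.69, and 0.60 over the 21 in the tables), where 9.01% and 13.3% of all symbols were. In the control pair 6 of 11 were lower and 4 higher (median -1.31), where 10.7% and 8.5% of all symbols were. Cd86, a costimulatory molecule, read 48.8 and 271 in NT, 19.1 and 1061 in MLL-AF9. Cd74, the invariant chain, read 20.7 and 33.2 in NT, 2.12 and 176 in MLL-AF9. Among the NT and MLL-AF9 libraries both were lowest in MLL-AF9 control and highest in MLL-AF9 OHT. The defining dendritic cell genes Zbtb46 and Siglech were under 20 in all 4 libraries. Of 32 chemokines and cytokines, 9 were higher and 7 lower after OHT (median 0.53), and in the control pair 17 of 22 were lower and none higher (median -1.98), beside the same shares over all symbols. Cxcl2 read 86 and 309 in NT, 29.6 and 1475 in MLL-AF9. Il1a read 24.8 and 216 in NT, 11.6 and 952 in MLL-AF9. Cytokines of mast cells stayed low: Il6 read 424 and 564 in NT, 32.8 and 102 in MLL-AF9, Il13 36.4 and 76.9 in NT, 2.12 and 6.82 in MLL-AF9 and Il4 23.2 and 83.1 in NT, 2.12 and 13.6 in MLL-AF9. The mast cell sums given above differ between the same libraries, and their part in these values was not tested.

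The transcripts that turned furthest included regulators and growth factors. Inhba, a subunit of activin, read 117 and 17.7 in NT, 29.6 and 576 in MLL-AF9, lowest in NT OHT and highest in MLL-AF9 OHT. Il7r, the IL-7 receptor, read 105 and 419.8 in NT, 9.53 and 1658 in MLL-AF9. Lmo1, a LIM-domain partner of TAL1, read 132 and 14.5 in NT, 23.3 and 113 in MLL-AF9. Myof, a membrane repair protein, read 106 and 668 in NT, 28.6 and 2417 in MLL-AF9. Gsap read 245 and 343 in NT, 55.1 and 1221 in MLL-AF9. In the opposite sense, Slc1a4, a neutral amino acid transporter, read 204 and 419 in NT, 444 and 101 in MLL-AF9. Atp1b1, a sodium pump subunit, read 173 and 456 in NT, 697 and 162 in MLL-AF9. Nat8l, which makes N-acetylaspartate, read 132 and 318 in NT, 935 and 142 in MLL-AF9, Sox12 121 and 229 in NT, 425 and 102 in MLL-AF9 and Grik5 181 and 352 in NT, 539 and 116 in MLL-AF9. Every one of these 5 was highest in MLL-AF9 control of the 4 libraries. Whether the 2 pairs differ was not tested for any of these genes, there being 1 library in each group.

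Of 21 measured neutrophil genes, 7 were higher and 2 lower after OHT (9.01% and 13.3% of all symbols were, so the 2 lower are under that share), with a median of 0.38, and 0.33 over the 23 in the tables. In the control pair 0 were higher and 10 lower of 23 (8.5% and 10.7% of all symbols were). The genes that follow were picked from this list after their values were seen. Elane, neutrophil elastase, read 1272 and 204 in NT, 1776 and 1639.8 in MLL-AF9, Prtn3, proteinase 3, 1458 and 347 in NT, 1788 and 1337 in MLL-AF9. Mpo, myeloperoxidase, read 3801 and 1065 in NT, 4588 and 3046 in MLL-AF9. In all 3, NT OHT alone was low. Cebpe, the factor of late granulocyte development, read 839.7 and 126 in NT, 810.04 and 731 in MLL-AF9. Fcnb, a ficolin, read 900.1 and 49.9 in NT, 359 and 468 in MLL-AF9. Other members were less apart or lower: Ltf read 3289 and 2222 in NT, 294 and 1169 in MLL-AF9, Ngp 1747 and 1264 in NT, 1839 and 1787 in MLL-AF9 and Retnlg 459.99 and 428 in NT, 22.2 and 38.2 in MLL-AF9. As many as 20 of the 21 exceeded 0.5 reads per base, where differences can be compressed. Eosinophil genes gave 4 higher and 2 lower of 7 measured, beside the same shares over all symbols, with Epx (662 and 30.1 in NT, 826 and 98.2 in MLL-AF9), whose summed list stood at 535 in NT OHT and 771 in MLL-AF9 OHT.

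New higher differences, near equal with ethanol, were led by Olfm4, a secreted glycoprotein of granulocytes, at 243 and 75.8 in NT, 236 and 887 in MLL-AF9, and by Gpr84, a receptor for fatty acids, at 312 and 59.2 in NT, 259 and 512 in MLL-AF9. In both genes NT was lower with OHT and MLL-AF9 higher. Tlr9, the sensor of bacterial DNA, read 13.2 and 12.5 in NT, 14.8 and 126 in MLL-AF9. Jag1, a Notch ligand, read 34.7 and 60.3 in NT, 32.8 and 439 in MLL-AF9. Among the NT and MLL-AF9 libraries MLL-AF9 OHT alone was high. HOXA9 OHT stood at 341 for Tlr9 and 229 for Jag1, and PML-RARa control at 161 for Jag1. Gbp6, a guanylate-binding protein, read 25.6 and 23.9 in NT, 22.2 and 205 in MLL-AF9 and Gprc5b 2.48 and 15.6 in NT, 2.12 and 124 in MLL-AF9. In HOXA9 OHT they read 151 and 34.4. The 170 new lower differences had a median response to OHT of 0.23 in NT and -1.03 in MLL-AF9 on the log2 scale. The definition of the class fixed which of these medians is lower. In the 8 transcripts of this class named here NT OHT stood above NT control. Sel1l3 read 24 and 808 in NT, 19.1 and 156 in MLL-AF9, Hdac9, a histone deacetylase, 20.7 and 111 in NT, 20.1 and 10.9 in MLL-AF9. Spink2 read 61.2 and 182 in NT, 50.8 and 21.8 in MLL-AF9. Pde4d, a phosphodiesterase of cyclic AMP, read 532 and 902 in NT, 508 and 214 in MLL-AF9, with NT higher and MLL-AF9 lower after OHT. Pcbd1, Pdzd4, Nptx1 and Ikzf4 read 119, 131, 107 and 136 in NT OHT and 12.3, 15, 19.1 and 25.9 in MLL-AF9 OHT.

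The extremes of the OHT comparison held further genes. Highest stood 1810011O10Rik, now Tcim, at 0.827 and 1.04 in NT, 6.35 and 177 in MLL-AF9, where NT held 1 read in each library, the lowest entry, and Abcc8, a subunit of potassium channels, at 1.65 and 2.08 in NT, 22.2 and 213 in MLL-AF9. The folds after OHT were 171-fold (95% counting interval 30.1 to 6793) and 102-fold (95% counting interval 27.9 to 853). Fstl1, a follistatin-like protein, read 1.65 and 27 in NT, 28.6 and 1196 in MLL-AF9, Rspo1, a WNT agonist, 12.4 and 3.12 in NT, 74.1 and 153 in MLL-AF9. Plet1 read 9.10 and 6.23 in NT, 36 and 219.6 in MLL-AF9. Ms4a4c (13.2 and 17.7 in NT, 25.4 and 517 in MLL-AF9), Pydc3, now Ifi208 (2.48 and 3.12 in NT, 5.29 and 180.1 in MLL-AF9), and Pyhin1, now Ifi209 (19.9 and 54 in NT, 212 and 1581 in MLL-AF9), the latter 2 of the interferon-inducible Ifi200 family, were high in HOXA9 OHT too, at 490.5, 224 and 1893. Lowest, beside the genes above, stood Hs3st1, a heparan sulfate sulfotransferase (65.4 and 462 in NT, 2.12 and 1.36 in MLL-AF9), H19, an imprinted noncoding RNA (137 and 384 in NT, 1.06 and 1.36 in MLL-AF9), Gpr128, now Adgrg7 (692 and 922 in NT, 26.5 and 6.82 in MLL-AF9), and Vegfc, a lymphatic growth factor (295 and 592 in NT, 4.24 and 4.09 in MLL-AF9). Ndst3 and Bace2 read 576 and 725 in NT OHT against 4.09 and 5.46 in MLL-AF9 OHT. At the other end, the transcripts nearest to 2-fold among the higher ones were Sod2 (1.002 on the log2 scale), just inside it, and F830016B08Rik (12.5 in NT OHT and 25.9 in MLL-AF9 OHT), just outside it. Among the lower ones they were Gm16907 (118 in NT OHT and 58.7 in MLL-AF9 OHT), inside, and Etohi1 (238 in NT OHT and 119 in MLL-AF9 OHT), outside.

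Proliferation did not separate the OHT libraries at this depth. Of 25 measured mitosis genes none was 2-fold higher or lower (median 0.04), and their sum was 10323 in NT OHT and 11083 in MLL-AF9 OHT, from 37526 and 30754 with ethanol. Ribosome biogenesis genes gave 0 of 31 either way (median 0.02) and DNA replication genes 2 of 28 higher (median 0.22), Cdt1 (278 in NT OHT and 615 in MLL-AF9 OHT) and Gins1 (30.1 in NT OHT and 66.8 in MLL-AF9 OHT). Over all symbols 9.01% were higher and 13.3% lower, so the 2 DNA replication genes are under that share. Of 18 measured PRC1 genes, Auts2 (112 in NT OHT and 10.9 in MLL-AF9 OHT) alone was past 2-fold, and of 11 PRC2 genes Jarid2 (11.4 in NT OHT and 30.01 in MLL-AF9 OHT). Bmi1 read 1243 in NT OHT and 1106 in MLL-AF9 OHT. Cdkn2c, an inhibitor of CDK4 and CDK6, read 246 and 106 in NT, 775 and 685 in MLL-AF9, higher in MLL-AF9 in both pairs.

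A test was possible only over more libraries. A model with the context and the treatment as terms was fitted to all 8 libraries with limma on log2(value + 1), so that the control and the OHT library of a context stand as its 2 observations and the spread comes from all 4 contexts (3 residual degrees of freedom). It asks whether MLL-AF9 differed from NT on average over both treatments, not after OHT alone, and p-values measure only the spread between these libraries. Of 10599 transcripts, 304 (2.87%) passed a Benjamini-Hochberg adjusted p of 0.05, 50 higher (0.472%) and 254 lower (2.4%). Six4 and 4 HOX genes rose: Hoxb13 by 5.66 ± 0.27 (SE), adjusted p 0.0051; Hoxa2 by 4.51 ± 0.38 (SE), adjusted p 0.012; Hoxa11 by 6.49 ± 0.82 (SE), adjusted p 0.032; Hoxa7 by 2.88 ± 0.42 (SE), adjusted p 0.047; Six4 by 3.04 ± 0.30 (SE), adjusted p 0.017 (limma, log2 scale). Hoxa5 (4.06 after OHT and 3.83 in the control pair), Hoxa9 and Hoxa10 did not pass, with limma adjusted p of 0.056, 0.085 and 0.074. With edgeR Hoxa5 did pass (adjusted p 0.036), and Hoxa9 and Hoxa10 did not (0.073 and 0.06). Of the other kept genes, Hpgd, Bai1, Amotl1, Ces1d, Car4 and Snhg11 passed (limma adjusted p 0.0077, 0.0073, 0.007, 0.0077, 0.025 and 0.029), and Tln2 (0.062) and Hoxa11os (0.095) did not. With edgeR Tln2 did pass (adjusted p 0.045). The kept genes, Hoxa11 and Hoxb13 among them, were picked for a large difference in both pairs. The fit averages those same differences, so passing it is no separate support.

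Most mast cell genes were lower in that fit. Of 15 tested members 11 passed, all lower, with 4 of 12 megakaryocyte and 4 of 21 stem and progenitor genes, where 2.4% of all transcripts tested were lower. Mcpt2 changed by -7.08 ± 0.26 (SE), adjusted p 0.0041, Il1rl1 by -5.12 ± 0.40 (SE), adjusted p 0.0095, and Gata2 by -2.50 ± 0.32 (SE), adjusted p 0.032 (limma, log2 scale). Gata1 (-3.92 ± 0.35 (SE), adjusted p 0.014) and Gzmb (-2.83 ± 0.21 (SE), adjusted p 0.0091) passed too. The differences of these lists and genes in both pairs were described above. The fit averages those same differences, so these passes are no separate support. Bmp7, Maob, Rprm, Cadm3, Otop1, Mab21l1, Grm6 and Frmpd1 all passed, with limma adjusted p between 0.0041 and 0.027. They too were picked for a large difference in both pairs, which the fit averages, so passing is no separate support. None of 30 interferon, 31 monocyte, 12 dendritic cell or 25 proliferation genes passed in either direction with limma. With edgeR some did, among them Gbp3 of the interferon list and Ccr2 of the monocyte list (adjusted p 0.034 and 0.037). The fit has no term for a response to OHT that differs between contexts, so such a response enters its spread. A gene whose difference changed between the pairs can fail to pass for that reason. Not passing therefore says nothing about the OHT pair. For the interferon genes the median difference over both treatments was 0.71, and the smallest limma adjusted p among them was that of Gbp3, 0.06, whose levels were 41.4 and 86.2 in NT, 193 and 555 in MLL-AF9. With the 4 libraries of NT and MLL-AF9 alone, no transcript passed (smallest limma adjusted p 0.077, and 1578 at an unadjusted p under 0.05). The calls thus depend on the libraries of the other contexts. That fit also has fewer residual degrees of freedom, and why no transcript passed was not tested.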

How the data were processed

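mRNA of 8 mouse samples was analysed from 4 deposited tables, 1 per context, of 19353 RefSeq transcripts. Each table gives, as its deposited signal, 1 base mean per transcript and library, a read count the authors divided by a size factor (per the file headers, base mean; the NT table heads it "Empty"). The submitters' processing notes name TopHat, DESeq and mm9, without versions. The counter, and how reads shared by transcripts were assigned, is not given in the sources. The values are whole multiples of each library's lowest entry: 100% gave whole reads within a tolerance of 0.02, and the steps match joint size factors of the 8 libraries, so levels were set side by side. Symbols turned into numbers (36 transcripts) were restored by RefSeq identifier.

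Differences are log2(value + 1), MLL-AF9 minus NT, for transcripts with 20 or more in the higher library, called at 2-fold. "Near equal" is under 0.32 on the log2 scale either way. The members, gene lists and rules were chosen with earlier results of these data known. Counting intervals (95%) of a fold are conditional binomial (Clopper-Pearson) on recovered reads. Named transcripts have 100 or more in the higher library: the 15 highest and 15 lowest after OHT, the 10 a direction with the largest difference kept in both pairs, and 8 a direction that were lost, gained or turned (5 turned lower); from each list, the 4 highest and 4 lowest, defining markers and, chosen after their values were seen, others named to describe a list. The context model was fitted with limma 3.58.1 in R 4.3.3, two-sided, with Benjamini-Hochberg adjustment; edgeR 4.0.16 (quasi-likelihood) and DESeq2 1.42.0 on the recovered reads were alternatives. Calling code was tested on simulated data. Promoters came from RefSeq tables. The authors' deposited fold and p columns were not used. A few genes are not reported here, and figures leave out their rows.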

Additional observations from a re-analysis of the deposited data

Results flagged for a closer look

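For 13 named transcripts the MLL-AF9 minus NT difference lay on opposite sides in the control and the OHT pair, by 2-fold or more in each. There is 1 library in each group, so the difference between the pairs was not tested. After OHT the differences on the log2 scale were 4.95 for Inhba, 2.88 for Lmo1, 2.30 for Cmpk2, 2.09 for Cybb, 1.98 for Il7r, 1.91 for Fcgr1, 1.85 for Myof and 1.83 for Gsap. In the control pair they were -1.95, -2.45, -2.40, -2.33, -3.33, -3.58, -1.85 and -2.13. In the other sense they were -1.59 for Grik5, -1.48 for Atp1b1, -1.16 for Nat8l, -1.15 for Sox12 and -2.04 for Slc1a4, after 1.57, 2.004, 2.81, 1.81 and 1.12.

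The medians of 6 gene lists also lay on opposite sides, none tested. They were 0.73 after OHT and -0.89 in the control pair for monocyte and macrophage genes, 0.69 and -1.31 for dendritic cell and MHC class II genes, and 0.53 and -1.98 for chemokines and inflammatory cytokines. Growth factor and cytokine receptors gave 0.67 and -0.67, and eosinophil genes 1.04 and -0.65 over 7 and 6 genes. Neuronal, adhesion and matrix genes gave -0.97 and 0.68. Each median is over the genes measured in its own pair. Over all deposited members they were, in the same order of lists, 0.72 and -0.55, 0.60 and -0.37, 0.51 and -1.26, 0.61 and -0.73, 0.23 and -0.65, and -0.38 and 0.23. After OHT the lower library was under 20 in 4 of 7 eosinophil and 7 of 16 neuronal genes. The summed eosinophil level was higher in MLL-AF9 in both pairs (1626 in NT control, 1839 in MLL-AF9 control, 535 in NT OHT, 771 in MLL-AF9 OHT).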

How the results depend on the processing

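No paired analysis was possible because each group has 1 library and the labels give no replicate numbers. The counts after OHT scaled with the rule for a call: 576 higher and 857 lower with a minimum of 100, 1683 and 2247 with none, 355 and 636 at 4-fold, and 597 and 858 where the counting interval had to lie past 2-fold. A pseudocount of 10, a minimum of 50, both other scalings, leaving out transcripts over 0.5 reads per base and 1 transcript a symbol kept both counts within 1.5 times. The share kept ran from 30.8% to 35.0% for higher differences over all 10 alternatives, and from 53.2% to 57.8% for lower ones except 50.3% with no minimum. Centring moved the median by 0.09 after OHT, and higher calls from 40.4% to 45.7% of all calls.

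The context model called 304 transcripts with limma, 178 without the HOXA9 libraries, 236 without the PML-RARa libraries, 0 with the 4 libraries of NT and MLL-AF9 alone, and 1026 with DESeq2; edgeR called 349, of which 271 were shared with limma. The cause was not tested, but the fits with fewer libraries have fewer degrees of freedom. Of 172 named transcripts past 2-fold, none changed sign; 9 came under 2-fold with a pseudocount of 10 and 2 with centring. The HOX median was 1.29 with a pseudocount of 10, and the mast cell median -2.35. A library's own scatter between cultures is not measured by any of these values, and depth limits single genes under about 30 reads.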

Other observations

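Developmental transcription factors outside blood, a class known to be silenced by Polycomb, split into both directions. Of 84 deposited, 27 reached 20 reads in the OHT pair, 11 higher and 8 lower in MLL-AF9 (9.01% and 13.3% of all symbols were), and 17 of the 27 had their lower library under 20; only 6 were measured in the control pair. Levels with OHT were at least 2-fold above those with ethanol for 22 of the 27 in NT and 21 in MLL-AF9, against 14.7% and 16.1% of all transcripts. Most of the 27 entered only through an OHT library, which favours such a count, and members that stayed under 20 with OHT are left out of it. Pitx1, a hindlimb factor, read 0.827 and 2.08 in NT, 2.12 and 99.6 in MLL-AF9, and 389 in HOXA9 OHT. Irx5 read 0.827 and 22.9 in NT, 364 and 360.2 in MLL-AF9: NT OHT stood above NT control, and MLL-AF9 was high under both treatments. Pax8, a kidney and thyroid factor, read 11.6 and 2.08 in NT, 367 and 40.9 in MLL-AF9 and passed in the context model (limma, 4.32 ± 0.30 (SE), adjusted p 0.0077). Shox2 read 0.827 and 74.8 in NT, 1.06 and 15 in MLL-AF9, higher in NT OHT than in the other 3 libraries, and Emx2 40.5 and 81 in NT, 1.06 and 1.36 in MLL-AF9, low in both MLL-AF9 libraries (limma, -4.73 ± 0.44 (SE), adjusted p 0.015). Lhx2 read 1.65 and 49.9 in NT, 1.06 and 162 in MLL-AF9. For Pax8 and Emx2 the context model averages the same levels that are given here, so passing it is no separate support.

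Genes of fetal growth gave 5 higher and 1 lower of 10 measured, the 1 lower being near the share over all symbols given above. Igf2bp3, an RNA-binding protein of fetal cells, read 108 and 457 in NT, 1318 and 1531 in MLL-AF9. Lin28b, which blocks let-7 processing, read 75.3 and 23.9 in NT, 346 and 84.6 in MLL-AF9. Both were higher in MLL-AF9 in both pairs, and neither passed in the context model (limma adjusted p 0.13 and 0.3). Neuronal, adhesion and matrix genes gave 2 higher and 8 lower of 16 after OHT (9.01% and 13.3% of all symbols were). They gave 5 higher and 4 lower of 13 in the control pair (8.5% and 10.7% of all symbols were). Of those lower, chosen after their values were seen, Efnb2 read 160.5 and 532 in NT, 16.9 and 13.6 in MLL-AF9, Epha3 117 and 124 in NT, 1.06 and 6.82 in MLL-AF9 and Cdh2 113 and 506 in NT, 2.12 and 4.09 in MLL-AF9. All 3 were low in both MLL-AF9 libraries, and Epha3 and Cdh2 passed (limma, -4.92 ± 0.47 (SE), adjusted p 0.015 and -5.92 ± 0.67 (SE), adjusted p 0.025). The fit averages the differences seen before these genes were chosen, so passing is no separate support. Of 21 measured p53 targets 2 were higher and 5 lower after OHT, with a median of -0.29. The 2 higher are near the share of 9.01% over all symbols, and 13.3% of all symbols were lower. Plk2 read 58.7 and 421 in NT, 14.8 and 1851 in MLL-AF9 and Pmaip1 (NOXA) 621 and 735 in NT, 1308 and 1536 in MLL-AF9, the 2 higher ones being named here with 1 of the lower, Bbc3 (PUMA), at 215 and 859 in NT, 234 and 371 in MLL-AF9. Lpl, lipoprotein lipase, read 1023 and 3505 in NT, 52.9 and 7367 in MLL-AF9.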
